A study of Mus musculus with 6 samples.

Results

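The genes described here make, release, import, store and break down fat, or act as hormones of the fat cell. They were chosen by symbol as a list of 40 adipokine, lipogenesis, lipid storage and lipolysis genes, and 37 of them have a row among the 20071 Ensembl IDs of the count table. The expression of Lep, Elovl3 and Pck1 was not analysed here. By role, the 37 genes comprise 2 adipokines, 7 genes of fatty acid delivery and uptake, 9 of fatty acid synthesis, 6 of fatty acid activation and triglyceride synthesis, 5 of the lipid droplet, 6 of lipolysis and 2 of fatty acid oxidation. The marker genes given for the list are Adipoq, the adiponectin gene, and Scd1, which encodes a stearoyl-CoA desaturase.

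RNA came from mesenchymal stem cells (MSCs), stromal cells that can form bone, cartilage and fat cells, taken from femurs of 6-week-old C57BL/6J mice. The WT group is Pcif1 fl/fl, carrying loxP sites in both copies of Pcif1 and no Cre, and the CKO group is Prrx1-Cre;Pcif1 fl/fl. The Prrx1 enhancer drives Cre in limb bud mesenchyme, which gives rise to the stroma and bone of the limbs. Both groups carried the floxed alleles and spent 7 days in osteogenic medium (dexamethasone at 100 nM, β-glycerophosphate at 5 mM and ascorbic acid at 50 μg/mL). The labels list 3 libraries for each genotype, the design text speaks of duplicates, and neither says which mice or cultures the libraries came from, so p-values measure the spread between these libraries, which may be technical. PCIF1 adds a methyl group to a 2′-O-methyladenosine at the first position of capped mRNA. The comparison of CKO with WT asks how gene expression in differentiating MSCs differs when Pcif1 is deleted in the mesenchymal lineage.

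Fat is stored as triglyceride in lipid droplets. Fatty acids reach a cell from lipoproteins or are built from acetyl-CoA, are activated to acyl-CoA and are joined to glycerol in steps that end with the DGAT enzymes. Perilipins and CIDE proteins coat and enlarge the droplet, and 3 lipases in turn (ATGL, hormone-sensitive lipase and monoglyceride lipase) release the fatty acids again. Bone marrow stroma contains Adipoq-expressing progenitors and marrow adipocytes, and much of the enzyme chain is also active in macrophages and in cells that store no visible fat.

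The libraries held 20258209 to 28227696 counts. WT replicate 3 stood apart: chi-square values of its counts against the other WT libraries were 82.9 and 98.6 per gene, compared with 2.83 to 10.1 for every other pair within a genotype, and mitochondrial genes took 3.63% of its counts against 1.40% to 1.57% in the other 5 libraries. Pcif1 itself was at 42.8, 41.7 and 39.3 CPM (counts scaled to the size of each library with edgeR's TMM factors) in WT and 39.2, 37.8 and 39.7 CPM in CKO, counts per gene do not show the deleted exons, and the antisense gene Zfp335 covers 16.9% of its exonic bases. Xist, the transcript of the inactive X chromosome, lay between 232 and 443 CPM in WT and between 0.72 and 1.79 CPM in CKO, and the Y-linked Ddx3y lay between 48.4 and 62.2 CPM in WT and between 99.1 and 104 CPM in CKO. The sex of the cells and the genotype therefore cannot be told apart in any comparison below.

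Sequences upstream of 3 of the genes with the largest falls are shown, because these genes moved together and were at or near 0 in CKO. Each run holds 200 bases before a RefSeq transcription start on GRCm38.p6 and ends with the first transcribed base. It is written 5′ to 3′ on the strand of the gene. The run before Plin1 and that before the other start of Aqp7 are not shown, since 128 and 178 of their 201 bases lie in annotated exons of the gene. Capitals mark matches on either strand to TTNCNNAA, a loose form of the C/EBP recognition sequence, or to AGGTCA, the core recognition sequence of nuclear receptors, and the 2 motifs do not overlap in these runs.
Adipoq, chr16:23146336-23146536, plus strand: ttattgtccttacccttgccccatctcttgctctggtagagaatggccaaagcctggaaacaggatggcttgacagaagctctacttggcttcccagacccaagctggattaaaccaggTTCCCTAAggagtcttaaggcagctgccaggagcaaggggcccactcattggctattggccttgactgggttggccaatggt
Cidec, start 1, chr6:113435760-113435960, minus strand: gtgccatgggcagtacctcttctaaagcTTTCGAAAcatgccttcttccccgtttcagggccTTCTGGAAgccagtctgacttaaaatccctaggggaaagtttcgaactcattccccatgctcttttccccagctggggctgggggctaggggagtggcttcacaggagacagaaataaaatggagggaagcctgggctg
Cidec, start 2, chr6:113434764-113434964, minus strand: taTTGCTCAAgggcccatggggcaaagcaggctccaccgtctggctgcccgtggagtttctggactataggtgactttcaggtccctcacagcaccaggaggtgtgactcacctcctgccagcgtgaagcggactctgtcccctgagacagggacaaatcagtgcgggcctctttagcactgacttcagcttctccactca
Aqp7, start 1, chr4:41048136-41048336, minus strand: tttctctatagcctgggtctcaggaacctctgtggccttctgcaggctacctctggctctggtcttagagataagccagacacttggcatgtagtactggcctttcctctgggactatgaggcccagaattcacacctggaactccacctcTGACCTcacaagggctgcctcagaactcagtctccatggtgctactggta
Adipoq and both starts of Cidec hold TTNCNNAA in these runs, and Aqp7 holds AGGTCA, as its reverse complement. In the 250 bases before any start, TTNCNNAA was present in 10 of the 30 listed genes with a RefSeq promoter (Lep and Pck1 included), or 33.3%, against 40.3% of the 27025 genes with one. AGGTCA was present in 10 of the 30 as well, against 15.8% of all genes. The genes with AGGTCA were Abhd5, Acadm, Acly, Aqp7, Cd36, Cpt1a, Elovl6, Gpam, Lpin1 and Plin2, of which Aqp7 and Acadm were lower in CKO by the test below. A match is a string of letters and not a bound site. Of the 7 down-regulated genes with a RefSeq promoter, Acacb, Cidec and Aqp7 have a start that begins with A, the base on which PCIF1 acts, as have 4 of the 16 tested genes with a promoter that were not called. Over all 27025 genes with a promoter the share was 39.2%, and over the 30 listed ones 30%.

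The test was edgeR's quasi-likelihood F test, run on the 13733 genes with enough counts for its filter, and p-values were adjusted by Benjamini-Hochberg over that whole set. A gene is called down-regulated here at an adjusted p under 0.05 and a log2 fold change of -1 or less, and lower or higher at that adjusted p whatever the fold. Of the 37 genes, 34 were tested and 9 were down-regulated in CKO: Adipoq, Plin1, Cidec, Plin4, G0s2, Scd1, Acacb, Angptl4 and Aqp7. The share of down-regulated genes among all genes tested was 2.5%. None of the 34 was up-regulated, a call made for 1.03% of all genes. Without the limit on the fold, Pnpla2, Acadm and Acsl1 joined the list, so that 12 genes were lower, against 4.51% of all genes, and 0 were higher, against 2.88%. In bulk RNA, fewer cells of a type and less RNA per cell cannot be told apart.

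Adipoq and Plin1 were near or at 0 in CKO, whereas Acadm and Acsl1 fell by 0.43 and 0.40 on the log2 scale. The expression filter asks for about 0.442 CPM in 3 libraries. Plin1, Cidec and Aqp7 reached it in no CKO library and Adipoq in 2, so these 4 genes were tested because of their WT level. Among the other 30 genes tested, which reached it in all 6 libraries, 5 were down-regulated and 8 were lower. The shares over all genes tested, a set not limited in this way, were 2.5% and 4.51%. Every CKO library lay below every WT library for 17 of the 34 and for 13 of these 30, against 15.7% of all genes tested, and above for 7 of either set, against 15%. The median log2 fold change of the 34 was -0.23, also with Plin1, Cidec and Aqp7 set to the values from their counts below. It was -0.11 over the 30, and that of all genes was 0.0017. Retn, Pnpla3 and Cidea did not pass the filter.

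**Figure D1:**
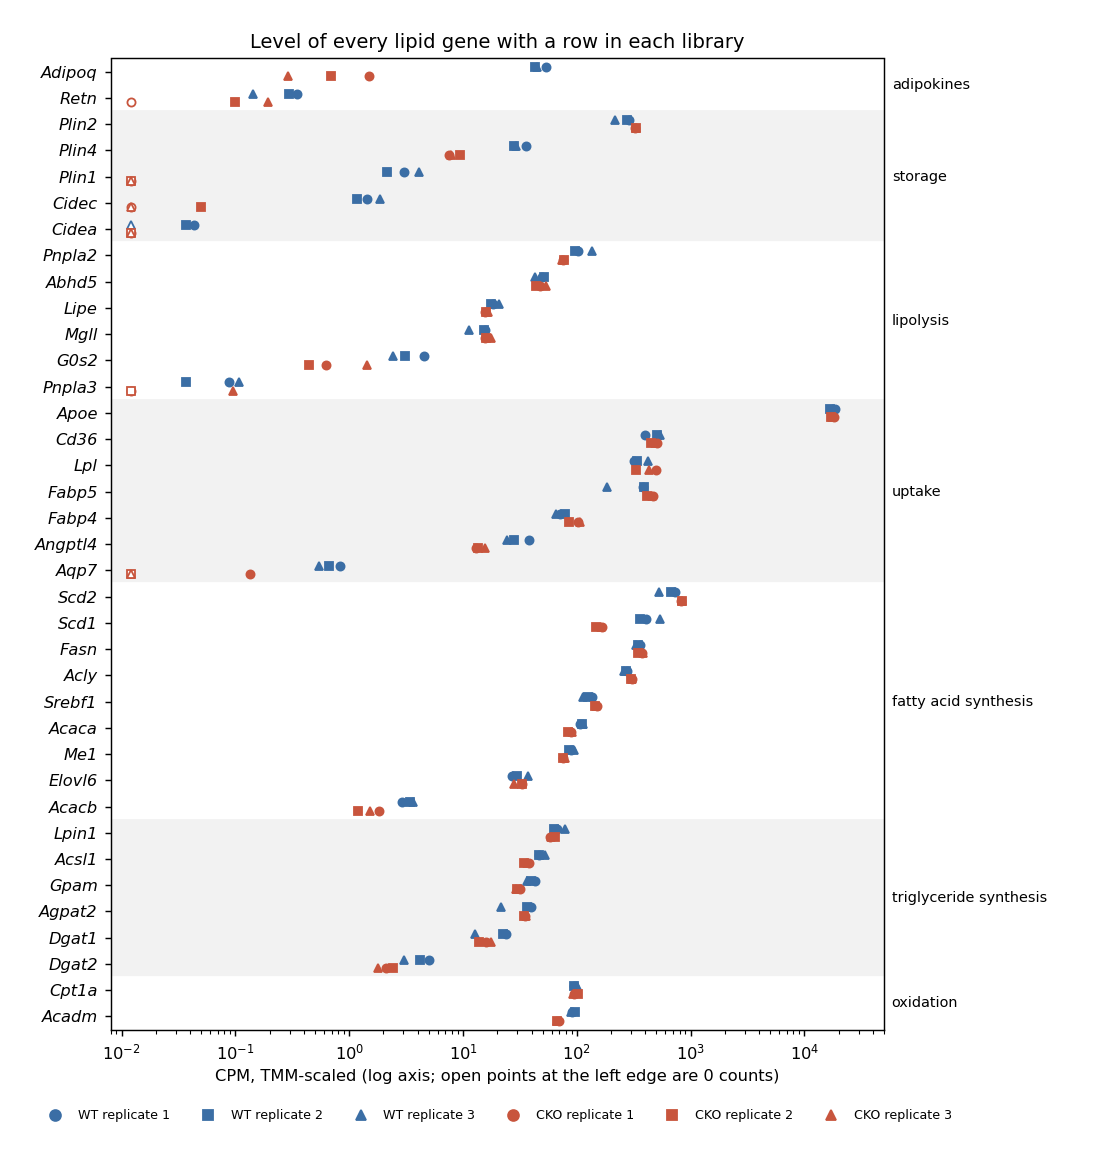
CPM on a log axis for each of the 37 genes, ordered by role and by WT mean, with 3 WT libraries in blue and 3 CKO libraries in red; open points at the left edge are libraries with 0 counts. Adipoq, Plin1 and Cidec are widely separated by genotype, whereas Apoe, Cd36, Fasn and Cpt1a lie on top of each other.

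Among the adipokines, Adipoq (ENSMUSG00000022878, chr16:23146536-23158028 in GENCODE on GRCm38, as for all positions below), whose product adiponectin is secreted by fat cells and by marrow stroma, was at 53.8, 42.9 and 44.3 CPM in WT replicates 1 to 3. In CKO replicates 1 to 3 it was at 1.49, 0.70 and 0.29 CPM. The raw counts behind these levels were 1232, 1166 and 1235 in WT and 33, 14 and 6 in CKO. The mean dropped from 47.0 ± 5.96 to 0.82 ± 0.61 CPM (SD over 3 libraries in each group), which is -5.80 on the log2 scale (standard error, SE, 0.36, adjusted p = 0.000111). Per kilobase of exon, Adipoq went from rank 10 of the 37 genes in WT to rank 30 in CKO. Retn, which encodes the mouse adipokine resistin, was barely counted, with 8, 8 and 4 counts in WT and 0, 2 and 4 in CKO, and was not tested.

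Lipid droplet genes split by protein. Plin1 (chr7:79720218-79732903), the perilipin that coats the droplet of fat cells and gates lipase access, had 69, 59 and 115 counts in WT, or 3.01, 2.17 and 4.12 CPM, and 0 in every CKO library. With the floor set at 3 counts over the 3 CKO libraries together, it was at least 65.5-fold lower. Cidec (chr6:113424634-113435760), which fuses small droplets into a large one, had 33, 32 and 52 counts in WT and 0, 1 and 0 in CKO. The ratio of WT to CKO was 94.6 (95% exact interval for counting error only, 16.7 to 3770). The adjusted p was 0.00142 for Plin1 and 0.00116 for Cidec. Cidea, the CIDE protein of brown fat, had 1, 1 and 0 counts in WT and 0 in CKO, which gives no fold.

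Plin4 (chr17:56100591-56109803), a perilipin of nascent droplets in fat cells, was at 35.6, 27.9 and 29.1 CPM in WT and at 7.61, 9.36 and 7.79 CPM in CKO. It kept a clear level in CKO, unlike Plin1, and its log2 fold change was -1.90 (SE 0.15, adjusted p = 0.000234). Plin2, the perilipin found on droplets of most cell types, was the most abundant gene of this group. Its level was 285, 279 and 214 CPM in WT and 327, 332 and 329 CPM in CKO. All CKO values lay above all WT values, yet the difference of 0.35 on the log2 scale did not pass the test (95% interval 0.07 to 0.62, adjusted p = 0.132). The droplet group thus held 3 down-regulated genes out of 4 tested, against 2.5% of all genes, and Plin1 and Cidec were tested because of their WT level.

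**Figure D2:**
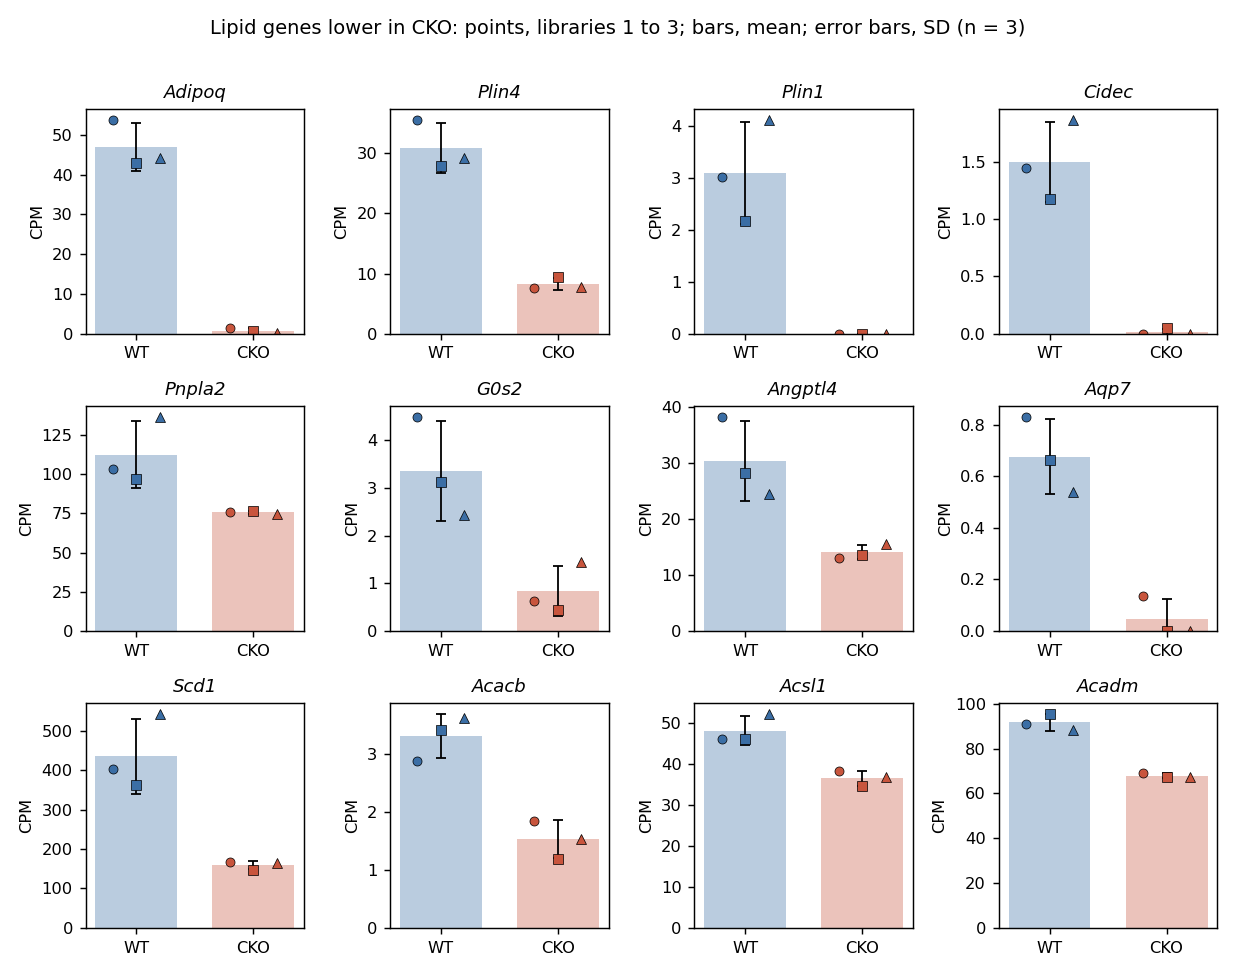
CPM of the 12 genes lower in CKO on linear axes that start at 0, with a point for each library (circle, square and triangle for replicates 1, 2 and 3), bars for the mean and error bars for the SD of 3 libraries. Adipoq fell from 47.0 to 0.82 CPM on average, whereas Acadm fell from 91.7 to 68.0 CPM.

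In the lipolysis group, 2 of 5 tested genes were lower, against 4.51% of all genes tested. Pnpla2, which encodes ATGL, the first lipase of the chain, was the most abundant member of the group, at 103, 97.2 and 137 CPM in WT and 75.8, 76.8 and 74.8 CPM in CKO. Its log2 fold change was -0.57 (SE 0.13, adjusted p = 0.0382). G0s2, whose product binds and inhibits ATGL, was at 4.499, 3.12 and 2.44 CPM in WT and 0.63, 0.45 and 1.44 CPM in CKO, a change of -1.98 (SE 0.42, adjusted p = 0.0263). So the lipase transcript and the transcript of its inhibitor were both lower, G0s2 from a much lower level. Abhd5, the activator of ATGL (log2 fold change 0.0081, 95% interval -0.26 to 0.27), Lipe, which encodes hormone-sensitive lipase (-0.23, interval -0.50 to 0.04), and Mgll, the monoglyceride lipase (0.23, interval -0.12 to 0.58), were not called. Reads of Abhd5 and Lipe may be shared, since 15.95% and 15.6% of their exonic bases overlap an antisense gene. Pnpla3 had 6 counts over the WT libraries and 2 over the CKO libraries.

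The calls of Pnpla2 and G0s2 did not hold each time a library was left out. Over the 13 alternative fits, the adjusted p of Pnpla2 ranged from 0.000427 to 0.16 and that of G0s2 from 0.000329 to 0.133, with G0s2 lost when WT replicate 1 or 2 or CKO replicate 1 or 2 was left out and Pnpla2 lost without WT replicate 1 or any CKO library. In those leave-outs the log2 fold change of Pnpla2 stayed between -0.62 and -0.56 and that of G0s2 between -2.03 and -1.69.

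Fatty acid synthesis showed an unequal change between the desaturase paralogs. Scd1 (chr19:44394455-44407879) and Scd2 encode stearoyl-CoA desaturases, which place the double bond of oleate and palmitoleate. Scd1 was at 403, 361 and 543 CPM in WT and 167, 147 and 164 CPM in CKO. Its mean dropped from 436 ± 95.4 to 159 ± 10.9 CPM (SD over 3 libraries), a log2 change of -1.45 (SE 0.15, adjusted p = 0.00101), and the groups were far apart. Scd2, the most abundant gene of the group, was at 731, 677 and 528 CPM in WT and 822, 834 and 842 CPM in CKO, with a log2 difference of 0.37 that did not pass the test (95% interval 0.08 to 0.65, adjusted p = 0.13). Per length, Scd1 made up 38.1%, 37.3% and 53.5% of the Scd1 and Scd2 level in WT and 18.5%, 16.5% and 17.9% in CKO. These shares do not overlap between genotypes, and WT replicate 3 is the highest. Of the 100-base stretches of Scd1 exons, 2.58% also occur in other genes, among them Scd2, so few reads of the paralogs can be confused.

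The remaining synthesis genes had smaller differences than Scd1. Acacb, the acetyl-CoA carboxylase of the mitochondrial surface whose product malonyl-CoA restrains oxidation, was at 2.88, 3.42 and 3.62 CPM in WT and 1.85, 1.19 and 1.54 CPM in CKO (log2 fold change -1.11, SE 0.23, adjusted p = 0.0240). Its level was low in both groups and its adjusted p reached 0.106 over the alternative fits, with the call lost without WT replicate 2 or any CKO library. Acaca, the cytosolic carboxylase of lipogenesis, differed by -0.32 (95% interval -0.51 to -0.13, adjusted p = 0.0578) and was not called, and 23.7% of its 100-base stretches also occur in other genes. Fasn, the fatty acid synthase, differed by 0.09 (interval -0.11 to 0.29) at a level of 344 ± 13.6 CPM in WT and 366 ± 19.2 CPM in CKO. For Acly, which supplies cytosolic acetyl-CoA, the value was 0.18 (interval -0.0012 to 0.36), and for Srebf1, the transcription factor of lipogenic genes, it was 0.24 (interval 0.02 to 0.46). Me1, a source of NADPH, was at -0.23 and Elovl6, which lengthens palmitate, at 0.0039. In all, 2 of 9 genes of the group were lower, against 4.51% of all genes tested, and 7 were not called.

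**Figure D3:**
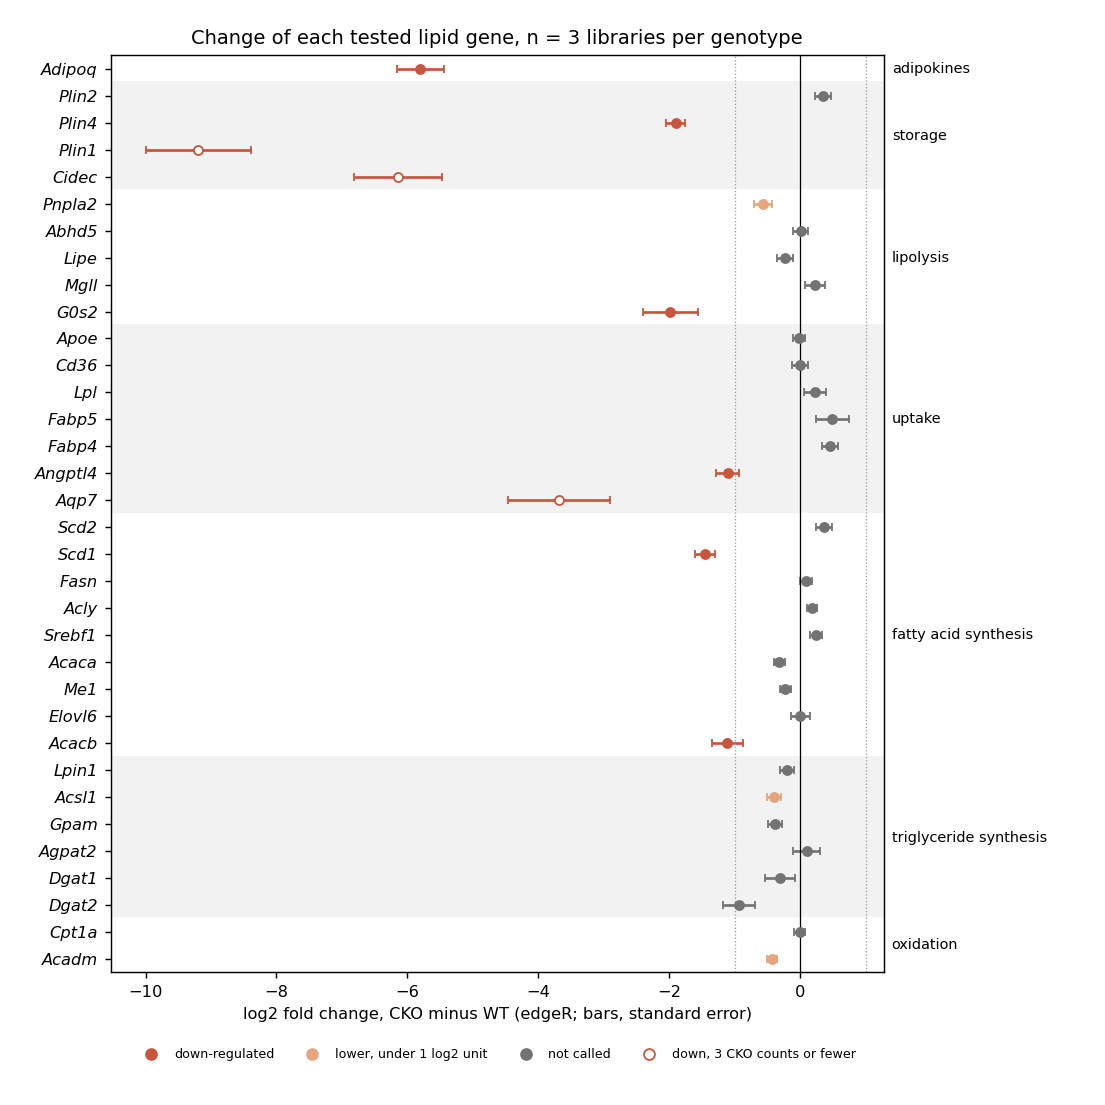
Log2 fold change of CKO minus WT from edgeR with its standard error for each of the 34 genes tested, 3 libraries per genotype. Red marks the down-regulated genes, orange those lower by under 1 log2 unit and grey those not called; open points are Plin1, Cidec and Aqp7, whose fitted values depend on a prior count, the solid line is the median of all genes (0.0017), and dotted lines stand at -1 and 1. Down-regulated genes occur in the adipokine, storage, lipolysis, uptake and fatty acid synthesis groups, and the highest value is 0.49, for Fabp5.

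Triglyceride synthesis had 6 tested genes, none of them down-regulated, a call made for 2.5% of all genes, and 5 of the 6 values were negative. Lpin1, a phosphatidate phosphatase and the highest of them in CPM though not per length, was at 67.3, 63.6 and 78.2 CPM in WT and 58.7, 63.8 and 58.9 CPM in CKO, so that the groups overlapped (log2 fold change -0.21, adjusted p = 0.315). Acsl1, the acyl-CoA synthetase that activates long-chain fatty acids, was at 46.3, 46.1 and 52.3 CPM in WT and 38.2, 34.7 and 36.8 CPM in CKO. Its change of -0.40 (SE 0.10) passed at an adjusted p of 0.049985, just under the threshold, and 10 of the 13 alternatives ended that call, with adjusted p-values up to 0.201. The leave-outs that ended it were those of WT replicate 1, WT replicate 2 and each CKO library. Dgat2, an enzyme of the last step, differed by -0.94 (95% interval -1.49 to -0.38) but had an adjusted p of 0.0555. It is one of 2 genes not called whose interval reaches beyond 1 log2 unit, the other being Fabp5. Gpam, the first acyltransferase, was at -0.38 (adjusted p = 0.0595), Dgat1 at -0.31 and Agpat2 at 0.10.

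Of the 7 genes of delivery and uptake, Angptl4 and Aqp7 were down-regulated, against 2.5% of all genes tested. Angptl4, a secreted inhibitor of lipoprotein lipase, was at 38.3, 28.2 and 24.6 CPM in WT and 13.1, 13.6 and 15.5 CPM in CKO (log2 fold change -1.11, SE 0.18, adjusted p = 0.00712). The lowest WT value was well above the highest CKO value. Aqp7, the channel through which glycerol leaves fat cells, had 19, 18 and 15 counts in WT and 3, 0 and 0 in CKO, a ratio of WT to CKO of 14.0 (95% exact interval 4.54 to 70.2), and an adjusted p of 0.0250. That call was lost without WT replicate 1, WT replicate 2, CKO replicate 2 or CKO replicate 3, with an adjusted p of up to 0.104.

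The abundant uptake genes did not pass the test. Apoe, the apolipoprotein of lipid-carrying particles, was the most abundant of all 37 genes, at 18418, 16847 and 17941 CPM in WT and 18016, 17028 and 17621 CPM in CKO. The genotypes overlapped, and the interval of the log2 difference ran from -0.23 to 0.20. Apoe alone took 1.69% to 1.86% of all counts in a library, and the other 36 genes together took 0.407% to 0.439%. Cd36, a fatty acid receptor of macrophages and fat cells, was at 482 ± 72.4 CPM in WT and 482 ± 27.2 CPM in CKO (interval -0.28 to 0.28). Lpl, the lipoprotein lipase that Angptl4 inhibits, had a difference of 0.23 (interval -0.15 to 0.61). Fabp4 and Fabp5 encode fatty acid binding proteins of fat cells and macrophages. Fabp4 was at 70.6, 78.8 and 66.3 CPM in WT and 103, 85.3 and 107 CPM in CKO, a difference of 0.46 with an adjusted p of 0.0545, just outside the threshold. Fabp5 was at 382, 390 and 183 CPM in WT, where replicate 3 was the low library, and at 467, 416 and 460 CPM in CKO (0.49, interval -0.09 to 1.07).

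Oxidation was represented by Cpt1a, which brings fatty acids into mitochondria, and Acadm, the medium-chain acyl-CoA dehydrogenase. Cpt1a, the higher in CPM though not per length, was at 94.9, 95.2 and 100.0 CPM in WT and 94.1, 102 and 93.1 CPM in CKO, and the interval of its log2 difference was -0.20 to 0.19. Acadm was at 91.2, 95.6 and 88.3 CPM in WT and at 69.1, 67.4 and 67.5 CPM in CKO. Its change of -0.43 (SE 0.08, adjusted p = 0.0172) was among the smaller of the 12 falls, with little spread in either group. The call was lost without WT replicate 2 or any CKO library, with an adjusted p of up to 0.118.

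Falls occurred among genes of high and of low level. Per kilobase of exon, the genes ranked 1 to 4 in WT were Apoe, Cd36, Scd2 and Fabp5, none of them called, and the down-regulated Scd1 and Adipoq followed at ranks 5 and 10. The down-regulated Plin1, Cidec, Acacb and Aqp7 ranked 31 to 34. Of the 22 tested genes that were not called, 20 had a 95% interval within 1 log2 unit of 0 on both sides. The spread between libraries was wider in WT, with a median coefficient of variation over the 34 genes of 14.2%, than in CKO, with 5.64%, and it was 4.92% for WT replicates 1 and 2 alone. WT replicate 3 lay above all other 5 libraries for 13 of the 37 genes and below all of them for 11.

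Leaving out WT replicate 3 added more calls than DESeq2 or limma-voom did. Without it, 10 genes were down-regulated and 16 lower, against 2.77% and 10.4% of all 13905 genes in that fit, with Dgat2 (-1.11, adjusted p = 0.00237), Dgat1 (-0.54), Gpam (-0.43) and Acaca (-0.29) added to the lower ones. Fabp4 (0.40), Fabp5 (0.22), Lpl (0.37), Scd2 (0.24) and Plin2 (0.23) then passed the test as higher, so that 5 genes were higher in place of 0, against 11.1% of all genes in that fit. Adipoq, Scd1, Plin1, Plin4, Cidec and Angptl4 had an adjusted p under 0.05 and the same sign in all 13 alternative fits. The log2 fold change of Angptl4 was -0.90 without WT replicate 1, short of the fold asked of a down-regulated gene. Angptl4 also passed narrowly, at an adjusted p of 0.0494 without CKO replicate 1 and 0.0497 without CKO replicate 2.

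**Figure D4:**
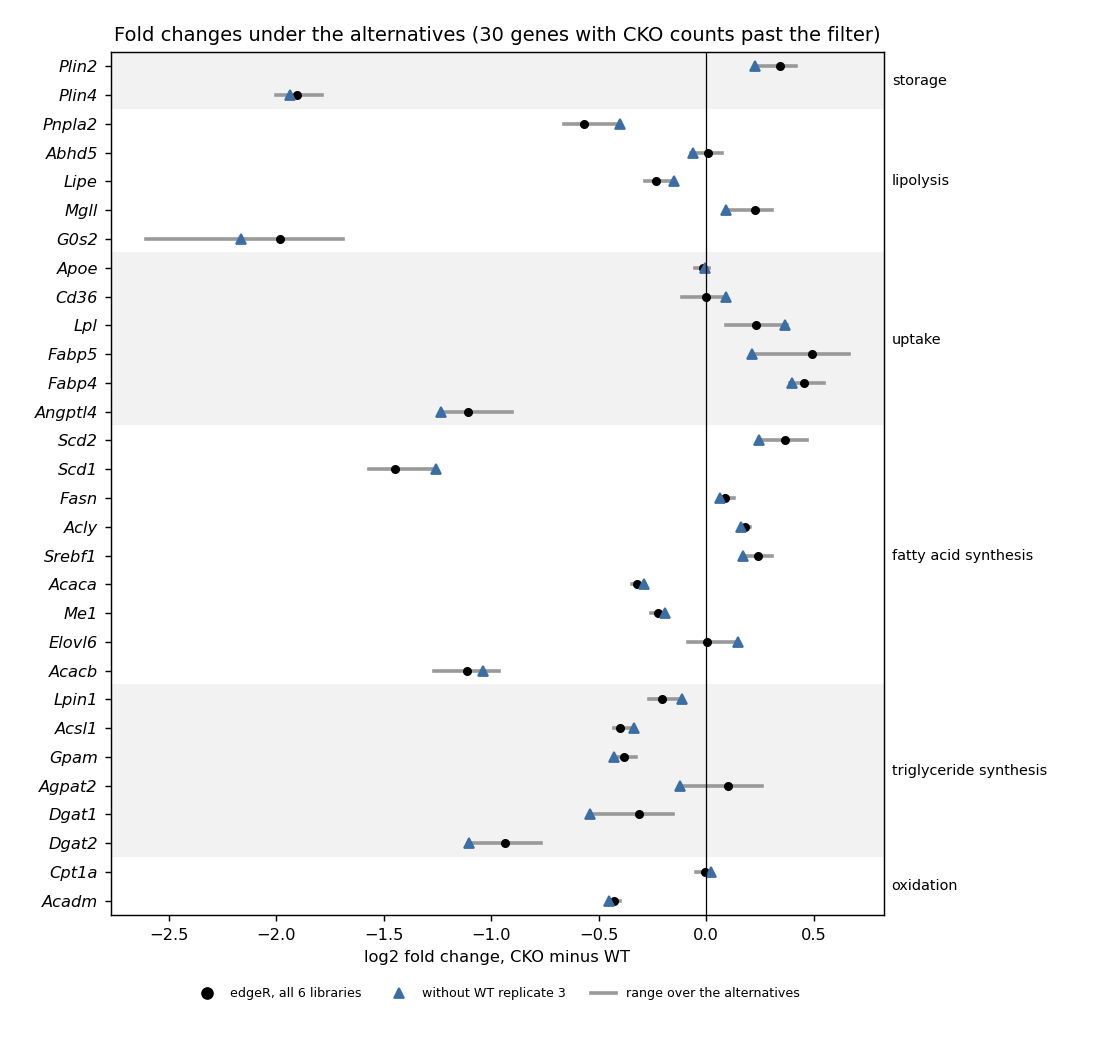
Log2 fold change of CKO minus WT for the 30 genes over the filter in all 6 libraries: black points are edgeR with all 6 libraries, blue triangles edgeR without WT replicate 3, and grey lines the range over the 13 alternative fits. Plin4, Scd1 and Angptl4 stay well below 0, while Agpat2, Cd36, Elovl6, Abhd5, Cpt1a and Apoe have ranges that cross it.

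Neighbouring genes of the same pathways were taken from lists of other members. Of 98 such lipid genes, 83 were tested, and 2 (2.41%) were lower and 7 (8.43%) higher at any fold, against 4.51% and 2.88% of all genes, with 1 down-regulated and 0 up-regulated. Adrb3, the β3-adrenergic receptor that starts lipolysis in fat cells, was the down-regulated one, from 1.46 ± 0.30 to 0.22 ± 0.06 CPM (log2 fold change -2.69, adjusted p = 0.00323). It reached the expression filter in no CKO library, and Rbp4, named below, in 1, so both were tested because of their WT level. Cpt2, the second carnitine palmitoyltransferase, was the other lower gene (-0.59, adjusted p = 0.0162). The higher genes included the fatty acid transporter gene Slc27a1 (0.53, adjusted p = 0.0314), Mid1ip1 (0.52), which activates acetyl-CoA carboxylase, the elongase gene Elovl5 (0.33), Lpin3 (0.67) and Cav1 (0.52), the caveolin gene. Adipokine receptors and further adipokines gave 3 lower (25%) and 1 higher gene (8.33%) among 12 tested, against 4.51% and 2.88% of all genes. Lepr, the leptin receptor and a marker of marrow stroma, went from 80.1 ± 18.9 to 12.2 ± 0.74 CPM (-2.72, adjusted p = 0.000131), and Rbp4, a retinol carrier secreted by fat and liver, from 7.02 ± 1.54 to 0.41 ± 0.12 CPM (-4.07, adjusted p = 0.000154).

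Of 19 tested transcription factors of fat cell formation, 6 were lower and 0 higher, against 4.51% lower among all genes. Pparg, the nuclear receptor that directs fat cell differentiation, was at 30.3 ± 5.00 CPM in WT and 10.2 ± 0.70 CPM in CKO (log2 fold change -1.57, SE 0.15, adjusted p = 0.000557). Zfp423, a factor of preadipocyte commitment, was at 11.8 ± 3.48 and 2.39 ± 0.52 CPM (-2.30, SE 0.26, adjusted p = 0.0013).

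Markers of cell types that the cultures could hold were summed for each library. Counts of called genes in each list can be set against 4.51% lower and 2.88% higher among all genes tested. The macrophage list summed to 35728 to 38388 CPM in WT and 35877 to 39124 CPM in CKO, all 20 of its genes were counted, and 2 of 20 were higher in CKO, Fcgr1 (0.89) and Cx3cr1 (1.24). RNA of macrophage genes was thus abundant in both genotypes, and its part in the levels of Apoe, Cd36, Lpl, Fabp4, Fabp5 and Plin2 was not tested. The adipocyte list, which shares Adipoq, Scd1, Plin1, Cidec, Retn and Lipe with the genes above, summed to 750 to 841 CPM in WT and 411 to 444 CPM in CKO, most of it from Scd1 and from Cebpa (271 ± 72.0 and 237 ± 11.4 CPM). It leaves out Fabp4, Lpl and Cd36, which were not lower in CKO. The difference in its sum is thus in part that of the genes above. Plin1 and Cfd, the adipsin gene, were at 0 in all CKO libraries. Ucp1, the defining gene of brown fat, was at 0.11 CPM or less everywhere. The brown adipocyte list summed to 9.92 to 11.98 CPM in WT and 6.12 to 7.43 CPM in CKO, and 1 of its 3 tested genes was lower, Prdm16 (-0.84, adjusted p = 0.0141). Neutrophil genes summed to 1.00 to 1.14 CPM in WT and 1.30 to 1.98 CPM in CKO, and S100a8, 1 of 2 tested, was higher (1.45, adjusted p = 0.0394). The WT level of S100a8 was near the expression filter of about 0.442 CPM, so it may have been tested because of its CKO level. The mesenchymal list summed to 9454 to 12467 CPM in WT and 15052 to 16213 CPM in CKO, with 3 of 12 genes lower (Pdgfra, Eng and Vcam1) and 5 higher. The collagen genes Col1a1, Col1a2 and Col3a1 made up most of that sum, and all 12 genes were counted in both groups. The osteoblast list, of which 3 of 9 tested genes were lower and 1 higher, summed to 14586 to 20717 CPM in WT and 17889 to 26653 CPM in CKO. Spp1 (12803 ± 3525 CPM in WT and 17214 ± 4701 CPM in CKO), which did not pass the test, and Col1a1 (4039 ± 511 and 6173 ± 299 CPM), the higher gene, made up most of that sum, while Sp7 (-1.88), Alpl (-1.11) and Ibsp (-1.25) were the lower genes. Endothelial genes summed to 27.5 to 39.4 CPM in WT and 24.0 to 25.8 CPM in CKO, and smooth muscle genes to 514 to 678 and 561 to 590 CPM, with none of either list called. Their part in the falls of Adipoq, Scd1 and the droplet genes was not tested.

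**Figure D5:**
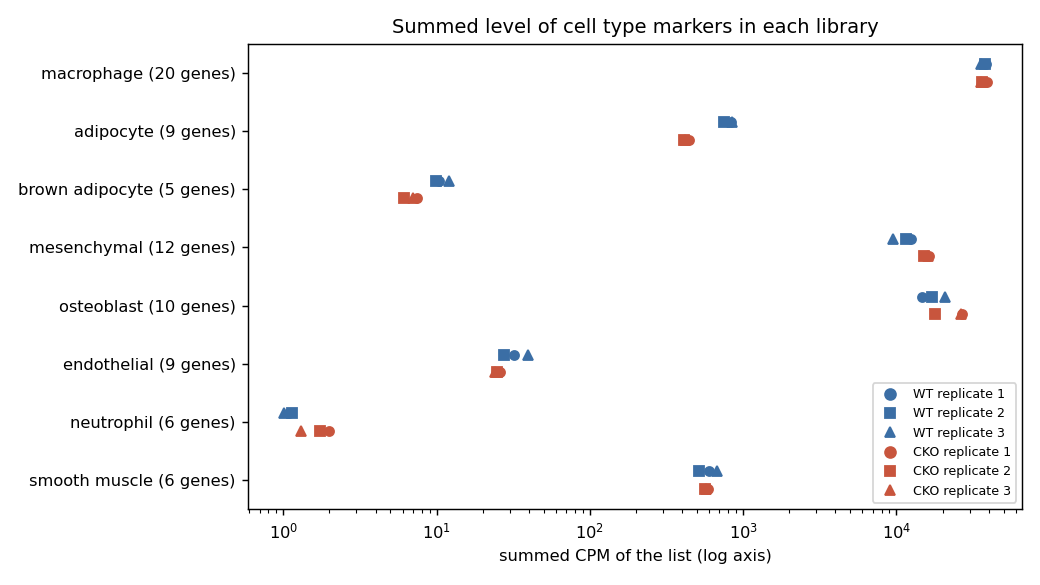
Summed CPM of 8 lists of cell type markers on a log axis, with 3 WT libraries in blue and 3 CKO libraries in red. The macrophage sums of the genotypes overlap between 35728 and 39124 CPM, whereas the adipocyte sums are separated, at 750 to 841 CPM in WT and 411 to 444 CPM in CKO. The adipocyte list holds Adipoq, Scd1, Plin1 and Cidec, which fell, and leaves out Fabp4, Lpl and Cd36, which were not lower.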

How the data were processed

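Poly(A) RNA of 3 WT and 3 CKO libraries was sequenced, and the deposited values are raw counts of reads per gene, which the authors did not normalize. Per the labels and the study's methods, FastQC was used for quality control and HISAT2 for alignment to mm10. The counting tool, its annotation, its use of strand and all versions are not given in the sources used here, so reads of overlapping or near-identical genes may be split. The 92 rows that repeat an Ensembl ID carry the same counts, and each ID was used once.

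The fit used edgeR 4.0.16 under R 4.3.3 with TMM scaling, filterByExpr, glmQLFit and glmQLFTest, and had no covariate. Standard errors are the log2 fold change over the square root of F, and 95% intervals use the 8.35 degrees of freedom of the fit. Alternatives were DESeq2 1.42.0, limma-voom (limma 3.58.1), RLE and total-count scaling, a minimum mean of 10 counts or no filter at all, a block for the replicate number, and leaving out each library. Fits were also run on simulated counts, which held no outlying library and no difference of sex, so nothing is concluded from them here. Lengths and overlaps come from GENCODE M21 on GRCm38. With 3 against 3, an exact two-sided permutation test cannot go below 0.1.

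The listed genes, roles and marker lists were chosen with earlier results of these data known. Values in every library are given for each called gene, for Adipoq and Scd1, and for the gene of each role with the highest mean CPM, and at most 2 genes are named for each further pathway list. Fabp4, Fabp5, Retn, Pnpla3, Cidea and the uncalled genes named with a value, as well as Fcgr1, Cx3cr1, Cfd, Ucp1, Prdm16, S100a8, Cebpa and the osteoblast and mesenchymal genes, were named after their values were seen. Counting intervals and floors cover counting error only, since PCR duplicates cannot be told from separate molecules.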

Additional observations from a re-analysis of the deposited data

How the results depend on the processing

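Over the 34 genes and 13 alternative fits, 392 of 441 values stayed on the same side of the threshold with the same sign where called, 33 lost the call, 16 gained it and 0 called values reversed. Leaving out 1 library gave 6 to 10 down-regulated and 6 to 16 lower lipid genes, against 9 and 12, and 0 to 5 higher ones, against 0. The number of higher lipid genes was 1 with DESeq2 and 1 with no expression filter, Fabp4 in both. The median log2 fold change of the tested lipid genes ranged from -0.26 to -0.17 when a library was left out. Over all genes, leaving out a library gave 89 to 229 up-regulated genes against 142, 324 to 1447 lower against 620 and 148 to 1544 higher against 396, with the highest count of each without WT replicate 3. The cause was not tested. The median log2 fold change of all genes was -0.02 under total-count scaling and 0.0054 under RLE scaling, against 0.0017.

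Samples with the same replicate number had correlations of 0.055, -0.045 and -0.013 between their deviations from the group means. Deviations from a mean of 3 libraries sum to 0, and WT replicate 3 stood apart. These values therefore cannot tell whether the numbers pair the libraries. With the replicate number as a block, 8 lipid genes were down-regulated and 8 lower, without Acacb, Pnpla2, Acadm and Acsl1, and the median log2 fold change was -0.23. Over all genes, that fit gave 326 down-regulated and 503 lower genes, against 343 and 620 without the block. Aqp7 could not be fitted with a filter at a mean of 10 counts. Depth limits Plin1, Cidec and Aqp7, whose CKO libraries held 3 counts or fewer in all, and Retn, Pnpla3 and Cidea.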
